A study of Mus musculus with 4 samples.

Results

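The 7 genes Acod1, Marco, Msr1, Clec4e, Fpr1, Fpr2 and Ccrl2 were followed in mouse spleen, out of 32285 features in the count tables. They were picked by name for strong RNA responses to TNF injection in these same libraries. Every comparison of TNF with PBS below is thus a description of that choice and carries no test. The choice drew on the PBS libraries as well as the TNF libraries. Mice aged 10 weeks received 100 µl of PBS by the intravenous route, either alone or with 9 µg of recombinant murine TNF, and their spleens were taken 4 h later. The mice were wild-type (B6) or TRIF-KO on the C57BL/6 background. TRIF, the product of Ticam1, is an adaptor protein of Toll-like receptors 3 and 4. The series asked what its loss does to the TNF response. Where 4 values follow each other, they belong to wild-type with PBS, wild-type with TNF, TRIF-KO with PBS and TRIF-KO with TNF, in this order. Each group was 1 droplet library, so there was no replicate spread, no difference could be tested, and each ratio compares 2 libraries rather than 2 conditions. Neither the number of mice behind a library nor the design of the TRIF-KO allele is given in the sources used here.

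Acod1 encodes the mitochondrial enzyme that makes itaconate from an intermediate of the citric acid cycle, and it is known as a gene that inflammatory signals switch on in myeloid cells. Marco and Msr1 encode class A scavenger receptors, trimeric surface proteins that bind bacteria and modified lipoproteins, and Marco is a known marker of marginal zone macrophages in spleen. Clec4e encodes Mincle, a C-type lectin receptor for mycobacterial glycolipid that signals through Fcer1g, Syk and Card9. Fpr1 and Fpr2 encode receptors for formylated peptides that guide neutrophils to bacteria and damaged cells, and Ccrl2 encodes a non-signalling receptor that presents the chemoattractant chemerin.

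In the GENCODE M21 annotation of GRCm38, Acod1 lies on chromosome 14 (103046977 to 103056573, plus strand), Marco on chromosome 1 (120474538 to 120505024, minus), Msr1 on chromosome 8 (39581685 to 39642673, minus) and Clec4e on chromosome 6 (123281789 to 123289870, minus). Fpr1 (17876471 to 17883940, minus) and Fpr2 (17887824 to 17893952, plus) sit head to head on chromosome 17 with 3884 bases between their starts, and Ccrl2 lies on chromosome 9 (111054486 to 111057519, minus). All 7 are protein-coding. Fpr2 overlaps 1 annotated gene, Fpr3, and 31.5% of the 50-base words in its transcripts also occur in Fpr1, Fpr3 or Gm5966 transcripts, so that part of its reads may not have been counted as unique. Fpr1 shares 1 of its 1275 words, and the other 5 genes share none. Fpr3 itself had 2 UMIs (unique molecular identifiers, the molecule tags that the count tables count) in the neutrophil-like cells of the TRIF-KO TNF library and 0 elsewhere in the 4 classes described here.

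The RefSeq promoter table (GRCm38.p6) held 6 of the 7 genes, all but Msr1. The stretches before the transcription start are shown for Acod1 and Ccrl2, the 2 genes that were at least 2-fold lower in the TRIF-KO TNF library, for Clec4e, and for the neighbours Fpr1 and Fpr2. Each runs 5′ to 3′ on the gene's own strand and is given without bases that lie inside the annotated gene, which leaves 215 to 250 of the 250 bases. The positions are chr14:103046762-103046976 (plus) for Acod1, chr9:111057520-111057768 (minus) for Ccrl2, chr6:123289872-123290121 (minus) for Clec4e, chr17:17883941-17884189 (minus) for Fpr1 and chr17:17887574-17887823 (plus) for Fpr2. Capitals mark motif matches.
Acod1: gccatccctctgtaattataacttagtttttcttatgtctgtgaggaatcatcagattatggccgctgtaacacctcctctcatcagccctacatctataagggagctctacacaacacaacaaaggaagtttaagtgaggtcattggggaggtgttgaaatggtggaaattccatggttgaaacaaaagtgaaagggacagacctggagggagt
Ccrl2: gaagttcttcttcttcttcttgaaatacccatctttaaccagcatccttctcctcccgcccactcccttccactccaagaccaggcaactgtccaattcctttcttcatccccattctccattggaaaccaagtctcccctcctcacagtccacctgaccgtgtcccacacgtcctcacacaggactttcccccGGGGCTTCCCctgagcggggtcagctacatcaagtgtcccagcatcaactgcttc
Clec4e: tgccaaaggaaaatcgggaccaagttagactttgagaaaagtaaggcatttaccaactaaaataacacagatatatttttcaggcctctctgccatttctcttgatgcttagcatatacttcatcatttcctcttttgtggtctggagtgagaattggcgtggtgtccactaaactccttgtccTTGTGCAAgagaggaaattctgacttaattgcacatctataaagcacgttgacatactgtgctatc
Fpr1: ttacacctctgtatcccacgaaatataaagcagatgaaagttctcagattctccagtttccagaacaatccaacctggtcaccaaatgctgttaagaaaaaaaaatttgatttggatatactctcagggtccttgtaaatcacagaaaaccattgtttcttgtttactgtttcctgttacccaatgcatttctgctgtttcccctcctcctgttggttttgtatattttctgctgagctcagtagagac
Fpr2: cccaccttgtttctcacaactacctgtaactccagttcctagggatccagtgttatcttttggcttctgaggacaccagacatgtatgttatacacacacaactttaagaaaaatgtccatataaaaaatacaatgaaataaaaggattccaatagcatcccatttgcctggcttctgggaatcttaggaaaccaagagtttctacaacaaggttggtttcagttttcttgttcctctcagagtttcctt

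The motifs searched on both strands were the NF-kB consensus by name, AP-1 (TGANTCA), a cyclic AMP response element (TGACGTCA), a C/EBP half-site pair (TTGCNNAA), an interferon regulatory factor motif by name and a PU.1 motif (GAGGAAGT). The Ccrl2 stretch held an NF-kB match, GGGGCTTCCC, from 56 to 47 bases before the start. The promoter table had 3 entries for Ccrl2, and a motif match was found only in the entry shown. The NF-kB motif was found in 3.90% of 32851 promoter windows of that length. Clec4e held a C/EBP match, TTGTGCAA, from 66 to 59 bases before the start, a motif found in 9.56% of the windows. The AP-1 letters were in 6.75%, the cyclic AMP element in 1.55%, the interferon regulatory factor motif in 2.98% and the PU.1 motif in 2.44% of them. The search covered all 250 bases before the RefSeq start, including those not printed. None of the 6 motifs was found in that window of Acod1, Marco, Fpr1 or Fpr2, which says only that these letters are not in those windows.

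The count tables held 2683, 6855, 6508 and 8060 barcodes and 23614028 to 67276803 UMIs. After filtering, 2448, 4966, 5364 and 6606 cells remained, and library pairs shared 3 to 15 barcodes. Cells were assigned by marker genes, and the classes rest on RNA markers alone. Neutrophil-like cells numbered 164, 81, 99 and 352, with medians of 4332.5, 4912, 2545 and 7452 UMIs. Monocyte-like cells numbered 82, 62, 128 and 98 (medians 14747, 10549, 9346 and 14693.5 UMIs). The 48, 92, 104 and 210 macrophage-like cells were shallow, with medians of 1237.5, 953, 855.5 and 1117.5 UMIs. Dendritic-like cells numbered 46, 64, 93 and 64, a narrower set than the 66, 184, 174 and 200 cells of the dendritic-like clusters. Ticam1 was read at 6.88, 3.77, 8.43 and 5.71 CPM (UMIs per 1000000 UMIs) over all kept cells, so its RNA did not separate the libraries labelled TRIF-KO from the others. Whether these reads lie outside the deleted part is not known here.

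The cells of a class were not alike in the PBS and TNF libraries. Unsupervised clustering placed neutrophil-like cells mainly in 1 cluster with PBS (161, 0, 95 and 0 cells) and in another with TNF (5, 82, 4 and 351 cells). The summed level of 8 granule protein genes in neutrophil-like cells was 12098, 40943, 24462 and 38282 CPM, with 1 of the genes, Elane, at 0 in all 4 libraries. In the TRIF-KO PBS and TNF libraries these genes moved unequally. Lcn2 was at 3904 and 13690 CPM, Ngp at 8046 and 11524, Camp at 8244 and 8381, Ltf at 2101 and 2317 and Chil3 at 2167 and 2367 CPM. Csf3r, the receptor for the neutrophil growth factor G-CSF, stood at 2684, 721, 3039 and 842 CPM. Monocyte-like cells likewise fell into 1 cluster with PBS (80, 0, 112 and 1) and another with TNF (0, 55, 0 and 86). The marker of classical monocytes Ccr2 was at 1629.8, 140.2, 1321 and 217 CPM there, and Treml4, of patrolling monocytes, at 68.8, 587, 126 and 619 CPM. Other monocyte genes read there did not all move as Treml4 did. Cx3cr1 was at 136, 9.90, 386 and 34.1 CPM, and Ace and Spn were likewise lower with TNF in both genotypes. Adgre4 was at 78.7, 358, 189 and 303 CPM, and Ear2 was likewise higher with TNF in both genotypes. Whether the cells shifted from classical to patrolling monocytes was not tested. In macrophage-like cells the complement gene C1qa stayed between 3432 and 3729 CPM, while the iron exporter gene Slc40a1 was at 2911, 374, 5265 and 599 CPM. The summed level of 10 erythroid genes, none of them at 0 in every library, was 13898, 13234, 35387 and 7460 CPM in macrophage-like and 4289, 2887, 1701 and 11697 CPM in neutrophil-like cells. The 12 neutrophil markers, which summed to 197895 to 331394 CPM in neutrophil-like cells, reached 846 to 1610 CPM in monocyte-like cells. The part of these shifts in the values below was not tested.

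Of the 28 combinations of a gene with a class, 14 held at least 100 UMIs over the 4 libraries and at least 50 CPM in 1 of them, and only these are counted as measured. Neutrophil-like cells gave 5 (Acod1, Clec4e, Fpr1, Fpr2 and Ccrl2), monocyte-like cells 6 (the same 5 and Msr1), macrophage-like cells 3 (Marco, Fpr1 and Fpr2) and dendritic-like cells none. The 4 classes together held 86.5 to 97.2% of the UMIs that 6 of the genes had in kept cells. Ccrl2 was the exception with 53.3%. Neutrophil-like cells held 87.2% of the Acod1 and 81.8% of the Fpr1 UMIs, monocyte-like cells 90.6% of the Msr1 UMIs and macrophage-like cells 82.3% of the Marco UMIs. These shares also follow how many cells of each class a library held.

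**Figure D1:**
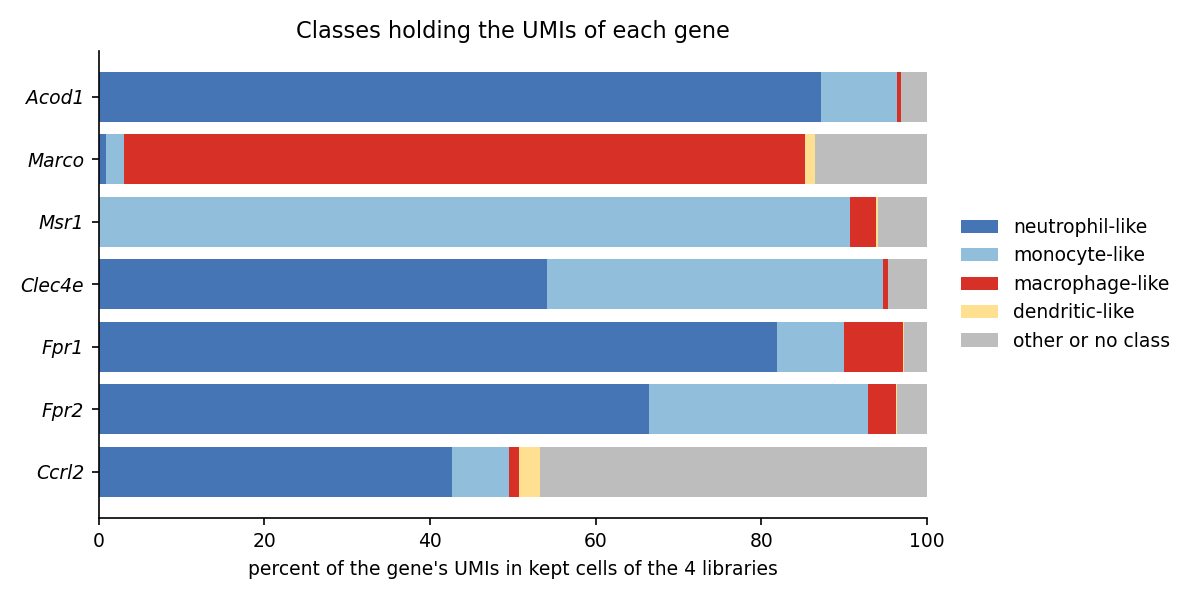
Percent of each gene's UMIs in kept cells of all 4 libraries (horizontal axis) that lay in the 4 classes or outside them, 1 bar per gene. Acod1 and Fpr1 lay mostly in neutrophil-like cells (87.2 and 81.8%), Msr1 in monocyte-like cells (90.6%) and Marco in macrophage-like cells (82.3%), whereas Ccrl2 had 53.3% in the 4 classes together.

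B-like cells, the most numerous class that should lack these genes, gave one measure of the level that free RNA and stray cells can produce. Apart from Ccrl2, no gene exceeded 4.25 CPM or 1.01% of B-like cells in any library, at medians of 3782 to 5937 UMIs per cell. Those highest values belonged to Clec4e and Marco in the TRIF-KO TNF library. Other non-myeloid classes held more. Marco stood at 12.9 and 6.71 CPM in erythroid-like cells of the wild-type and TRIF-KO TNF libraries (3.51 and 4.54% of cells) and at 42.3 CPM in the 27 plasma-like cells of the TRIF-KO TNF library (15 UMIs). Clec4e reached 11.9 CPM in NK-like cells of the wild-type TNF library (4 UMIs). The Marco levels given below for neutrophil-like, monocyte-like and dendritic-like cells reach 45.4 CPM, close to the level in plasma-like cells, and the part of background in them was not tested. Ccrl2 was read in 0.778 to 2.08% of B-like cells (1.82 to 3.31 CPM). Outside the 4 classes it was also read in 27.1, 18.98, 10.8 and 22.2% of erythroid-like cells, at 23.7, 22.1, 13.7 and 26.0 CPM and medians of 11296 to 15805.5 UMIs, so that its CPM there stood above that of B-like cells in every library. All intervals below are 95% intervals for counting error, and they treat UMIs as independent even where many come from 1 cell.

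In neutrophil-like cells the itaconate enzyme gene Acod1 stood at 290.0, 897, 59.5 and 358 CPM (232, 408, 18 and 1066 UMIs). The wild-type TNF library was the highest and the TRIF-KO PBS library the lowest, and no pair of the 4 intervals overlapped. The TNF library was 3.09-fold above the PBS library in wild-type and 6.03-fold in TRIF-KO. Between genotypes, the TRIF-KO library was lower with TNF by a log2 ratio of -1.32 (interval -1.49 to -1.16) and lower with PBS by -2.29 (-3.07 to -1.59).

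In monocyte-like cells Acod1 was not seen with PBS in either genotype. The 0 of 82 and 0 of 128 cells allow shares of up to 3.66 and 2.34% of cells with a UMI, taken as 3 counts over the number of cells (exact Clopper-Pearson upper limits 4.40 and 2.84%). With TNF it reached 193 and 41.0 CPM (117 and 65 UMIs), at least 77.6-fold and 15.98-fold above a floor of 3 counts in the PBS library of the same genotype. The TRIF-KO TNF library was lower than the wild-type TNF library by a log2 ratio of -2.23 (-2.69 to -1.78). Macrophage-like cells held 0, 3, 0 and 7 Acod1 UMIs and dendritic-like cells 0 in all 4 libraries. In the wild-type TNF library the order was neutrophil-like, monocyte-like and macrophage-like (22.4 CPM, 4.62 to 65.5), with dendritic-like cells at 0 (upper limit 11.2 CPM). Only the last 2 of these had overlapping intervals.

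Of the scavenger receptors, Marco stood in macrophage-like cells at 319, 3796, 116 and 4493 CPM (30, 508, 21 and 2002 UMIs). Both TNF libraries stood far above both PBS libraries, 11.9-fold in wild-type and 38.6-fold in TRIF-KO. It was found in 22.9, 68.5, 6.73 and 82.9% of the cells. Whether these cells were marginal zone macrophages was not tested. With TNF the TRIF-KO library was slightly higher, with a log2 ratio of 0.24 (0.10 to 0.39). With PBS it was lower, at -1.46 (-2.33 to -0.60). Single cells weighed heavily on these counts, since 1 cell held 15 of the 30 UMIs in wild-type PBS, 10 of the 21 in TRIF-KO PBS and 285 of the 2002 in TRIF-KO TNF. Without the top cell of each library the wild-type response was 4.31 on the log2 scale in place of 3.57, the TRIF-KO response 5.93 in place of 5.27, and the ratio of the TNF libraries 0.17. With at most 5% mitochondrial UMIs the TRIF-KO response was 6.19 and the ratio of the PBS libraries -2.70.

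Outside macrophage-like cells Marco was sparse. Its CPM was 1.66, 44.5, 0 and 22.1 in monocyte-like cells and 0, 33.0, 0 and 4.70 in neutrophil-like cells. Dendritic-like cells had Marco at 0, 45.4, 14.3 and 24.0 CPM. In the wild-type TNF library, 13 of 15 UMIs lay in 1 cell in neutrophil-like and again in dendritic-like cells. The 15 macrophage markers summed to 55.2, 299.7, 496 and 159 CPM in the dendritic-like cells, and their part in these values was not tested.

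Msr1, the other class A scavenger receptor, was read in monocyte-like cells at 229.5, 722, 101 and 396 CPM (277, 438, 118 and 627 UMIs). All 4 intervals were separate, and in each genotype the TNF library was the higher, 3.15-fold in wild-type and 3.92-fold in TRIF-KO. Both TRIF-KO libraries were below their wild-type counterparts, with log2 ratios of -0.87 (-1.05 to -0.69) with TNF and -1.18 (-1.51 to -0.87) with PBS. Its share of cells with a UMI, 78.0, 71.0, 39.1 and 79.6%, did not follow the order of the levels. Each positive cell held 4.33, 9.95, 2.36 and 8.04 UMIs on average. Macrophage-like cells gave 53.1, 74.7, 22.1 and 74.1 CPM from 4 to 33 UMIs. In neutrophil-like cells 0 UMIs were counted in every library, and the 352 cells of the TRIF-KO TNF library allow a share of up to 0.852% by the same rule (Clopper-Pearson 1.04%).

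Clec4e, which encodes Mincle, was read in neutrophil-like cells at 541, 1329, 320.4 and 860.0 CPM (433, 605, 97 and 2559 UMIs) and in monocyte-like cells at 127, 1740.0, 43.6 and 955 CPM (153, 1055, 51 and 1514 UMIs). With PBS the neutrophil-like level was the higher of the 2 classes in both genotypes, and with TNF the monocyte-like level was. The TNF libraries were 2.46-fold and 2.68-fold above PBS in neutrophil-like cells, and 13.7-fold and 21.9-fold in monocyte-like cells, in wild-type and TRIF-KO. The TRIF-KO library was lower in all 4 comparisons of genotype. The log2 ratios were -0.63 (-0.76 to -0.50) with TNF and -0.76 (-1.09 to -0.44) with PBS in neutrophil-like cells. In monocyte-like cells they were -0.86 (-0.98 to -0.75) with TNF and -1.54 (-2.03 to -1.07) with PBS. Macrophage-like cells held 0, 4, 1 and 35 UMIs, 15 of the 35 in 1 cell, and dendritic-like cells 0.

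Fpr1, the high-affinity formyl peptide receptor, was read in neutrophil-like cells at 253, 831, 109.0 and 430.5 CPM (202, 378, 33 and 1281 UMIs). The wild-type TNF library was again the highest, and the TRIF-KO library was lower by -0.95 (-1.11 to -0.78) with TNF and by -1.21 (-1.79 to -0.68) with PBS on the log2 scale. In monocyte-like cells Fpr1 stood at 4.14 and 2.57 CPM with PBS (5 and 3 UMIs) and at 80.8 and 82.0 CPM with TNF, a log2 ratio of 0.02 (-0.46 to 0.53) between the TNF libraries. In macrophage-like cells it was at 95.6, 269, 66.4 and 245 CPM, with a ratio of -0.14 (-0.69 to 0.45) between the TNF libraries. The 12 neutrophil markers summed to 117, 426, 116 and 548 CPM in those macrophage-like cells, with 3 of the 12 at 0 in all libraries, and so were higher in the same libraries as Fpr1. Their part in the macrophage-like values of Acod1, Clec4e, Fpr1 and Fpr2 was not tested.

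Fpr2, the lower-affinity and more promiscuous receptor of the pair, was read in neutrophil-like cells at 388, 1281, 284 and 916 CPM (310, 583, 86 and 2726 UMIs). The log2 ratio of TRIF-KO to wild-type was -0.48 (-0.61 to -0.35) with TNF and -0.45 (-0.81 to -0.10) with PBS. Monocyte-like cells gave 27.3, 739, 26.5 and 608 CPM, with TNF libraries 27.0-fold and 22.9-fold above PBS. The 2 PBS libraries lay within each other's intervals (-0.04, -0.80 to 0.71), and the TNF libraries differed by -0.28 (-0.45 to -0.12). Macrophage-like cells gave 21.3, 284, 72.0 and 301 CPM, and the TNF libraries had a ratio of 0.08 (-0.45 to 0.64). The PBS values there rest on 2 and 13 UMIs, and their ratio of 1.76 (-0.38 to 4.95) turned to -0.27 when each cell was weighted equally.

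Ccrl2, the chemerin-presenting receptor, was read in neutrophil-like cells at 12.5, 716, 52.8 and 220.1 CPM (10, 326, 16 and 655 UMIs). The wild-type PBS library was the lowest and the wild-type TNF library the highest, 57.3-fold apart, whereas the TRIF-KO libraries were 4.17-fold apart between them. The TRIF-KO library was thus lower with TNF, at a log2 ratio of -1.70 (-1.90 to -1.51), and higher with PBS, at 2.08 (0.85 to 3.38). In the PBS libraries 4 of 10 and 5 of 16 UMIs lay in 1 cell.

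In monocyte-like cells Ccrl2 stood at 14.9, 119, 6.84 and 41.0 CPM (18, 72, 8 and 65 UMIs), with a ratio of -1.53 (-2.04 to -1.03) between the TNF libraries. Macrophage-like cells held 1, 20, 1 and 8 UMIs (10.6, 149, 5.54 and 18.0 CPM). Dendritic-like cells gave 35.9, 30.3, 25.1 and 18.5 CPM from 10 to 26 UMIs, with overlapping intervals. NK-like cells gave 13.1, 47.6, 16.7 and 23.2 CPM from 6 to 16 UMIs.

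**Figure D2:**
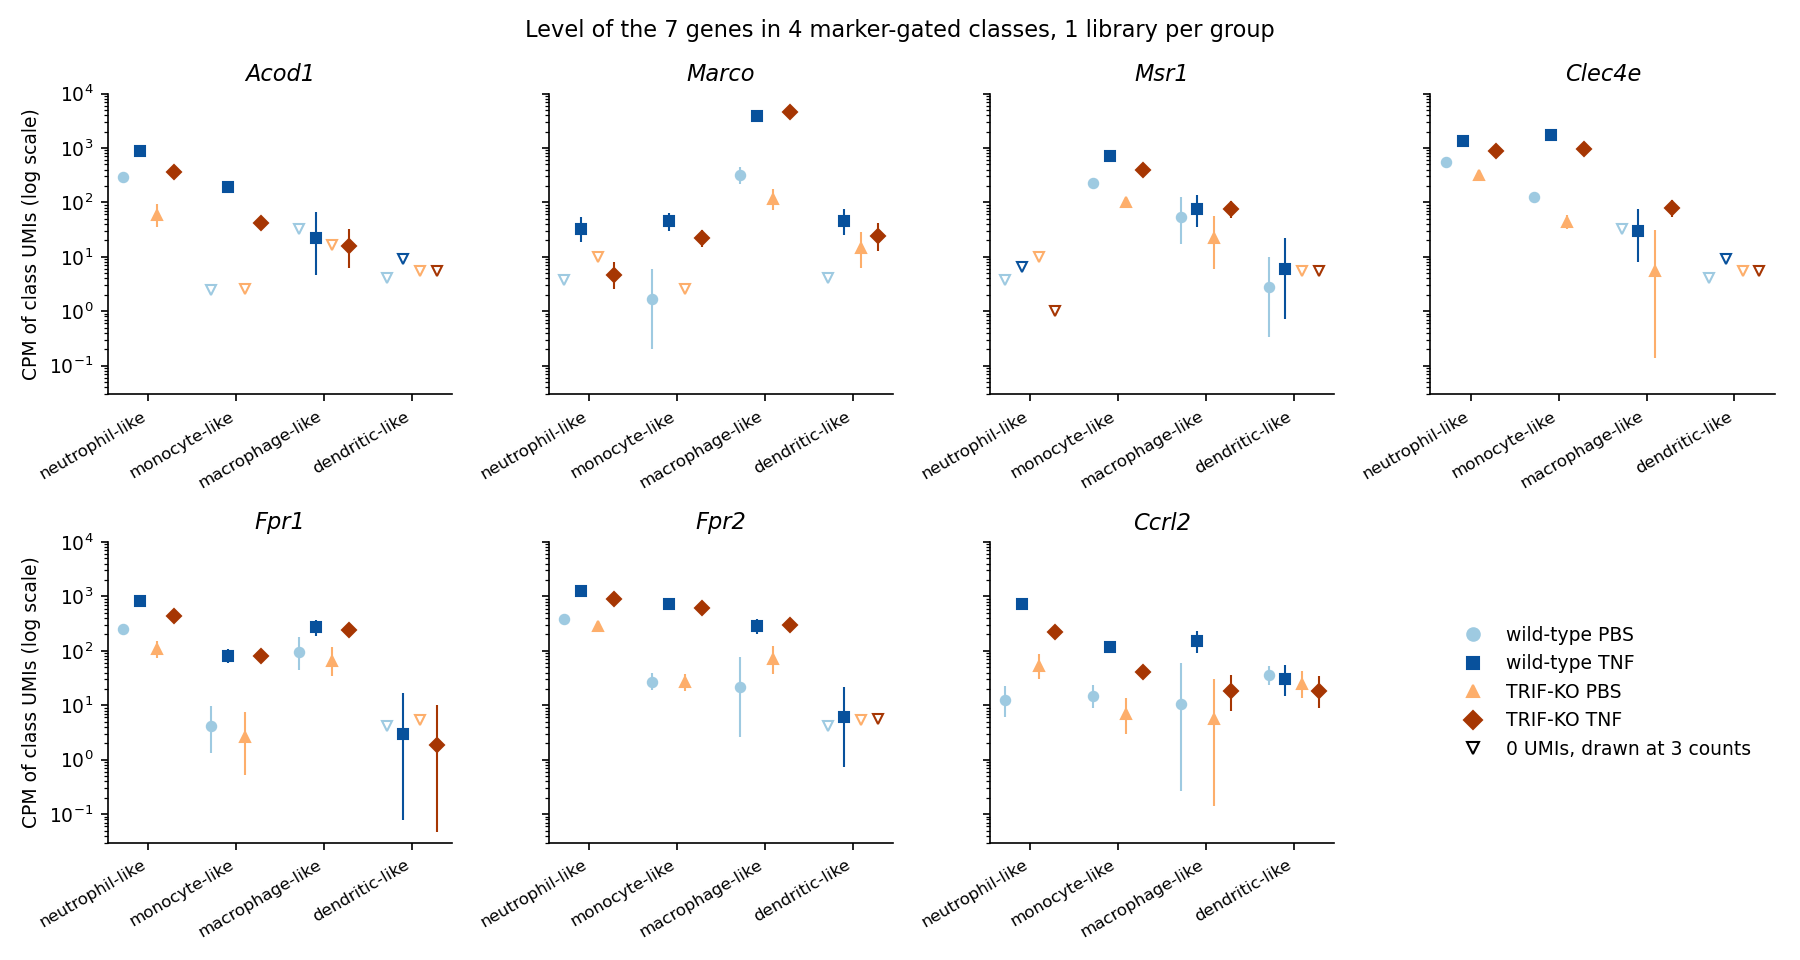
Level of each gene in CPM of the class total (log scale) in 4 classes and 4 libraries, with 95% Poisson intervals; open triangles mark 0 UMIs and are drawn at 3 counts. The TNF libraries stand above the PBS libraries of the same genotype in the 14 measured combinations, and Marco reaches 3796 and 4493 CPM in macrophage-like cells.

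All 14 measured combinations were at least 2-fold higher with TNF in wild-type and all 14 in TRIF-KO, as the choice of the genes fixed. With each cell weighted equally it was 13 in wild-type, since Fpr1 in macrophage-like cells stood at 0.74 on the log2 scale, and after thinning to 500 UMIs it was 13 in wild-type and 11 in TRIF-KO. Of the 4 combinations missing after thinning, 3 had no value (Acod1 in monocyte-like cells of both genotypes and Ccrl2 in those of TRIF-KO), and Fpr1 in monocyte-like cells of TRIF-KO stood at 0.80. Over all measured features, 10.8% in neutrophil-like, 10.5% in monocyte-like and 11.7% in macrophage-like cells were at least 2-fold higher in wild-type, and 8.92, 11.4 and 12.1% in TRIF-KO. At least 2-fold lower were 27.2, 20.2 and 12.5% of the features in wild-type and 24.3, 12.1 and 6.67% in TRIF-KO. In dendritic-like cells, where no member was measured, 6.9% were higher and 21.2% lower in wild-type, and 5.46% and 9.09% in TRIF-KO. The median log2 ratio over all features was -0.39, -0.18 and -0.01 in wild-type and -0.42, 0.01 and 0.11 in TRIF-KO in the same classes. Relative to those medians the TNF ratios in neutrophil-like cells would thus be higher. The smallest member ratio was that of Clec4e in neutrophil-like cells of wild-type, at 1.30 on the log2 scale. That of Fpr1 in macrophage-like cells of wild-type, at 1.49 (0.41 to 2.73), had an interval that reached under 2-fold.

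Comparing TRIF-KO with wild-type with TNF, 4 of the 14 combinations were at least 2-fold lower and 0 at least 2-fold higher. The 4 belonged to 2 genes, Acod1 and Ccrl2, each in neutrophil-like and monocyte-like cells. Over all measured features, 5.56% in neutrophil-like, 2.29% in monocyte-like and 1.94% in macrophage-like cells were at least 2-fold lower, and 5.89, 6.68 and 5.67% at least 2-fold higher. In dendritic-like cells the shares were 1.76% lower and 7.96% higher. The median of the members was -0.95 in neutrophil-like and -0.87 in monocyte-like cells, beside -0.06 and 0.10 over all features, and 0.08 in macrophage-like cells beside 0.07. In all, 11 of the 14 ratios were below 0, and 10 of them had intervals wholly below 0. The exceptions above 0 were Marco and Fpr2 in macrophage-like cells and Fpr1 in monocyte-like cells. The members had been chosen partly for high values in the TNF libraries, which this comparison shares.

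With PBS, 6 of the 13 combinations that gave a value were at least 2-fold lower in TRIF-KO. These were Acod1 and Fpr1 in neutrophil-like cells, Msr1, Clec4e and Ccrl2 in monocyte-like cells, and Marco in macrophage-like cells. At least 2-fold lower were 8.03, 3.01 and 4.23% of all measured features in the 3 classes, and 5.46, 1.88 and 3.73% were at least 2-fold higher. The dendritic-like shares were 2.08% lower and 2.57% higher. Ccrl2 in neutrophil-like cells and Fpr2 in macrophage-like cells were the 2 combinations at least 2-fold higher. The medians of the members were -0.76, -1.12 and -0.53, beside -0.02, -0.09 and -0.03 over all features. Many of these counts were small, and the intervals of 5 of the 13 ratios held 0. The members had been chosen for strong TNF responses, which rest partly on the PBS libraries that this comparison shares.

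**Figure D3:**
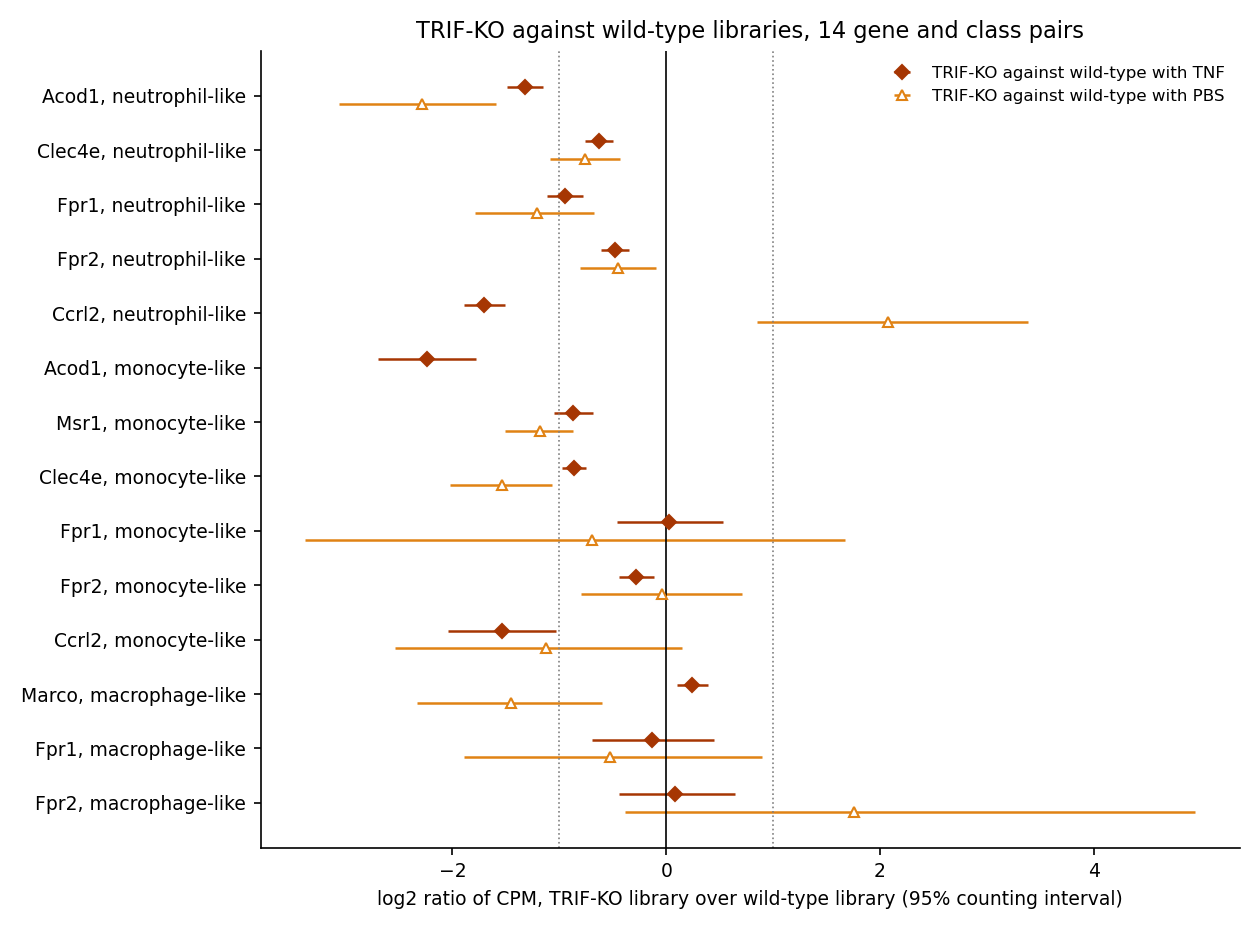
Log2 ratio of TRIF-KO to wild-type CPM (horizontal axis) for the 14 measured combinations, with TNF (filled) and with PBS (open), with 95% counting intervals; dotted lines mark 2-fold. Acod1 and Ccrl2 lie below -1 with TNF in neutrophil-like and monocyte-like cells, and Ccrl2 in neutrophil-like cells lies above 1 with PBS.

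The response to TNF, as the log2 ratio in TRIF-KO minus that in wild-type, differed most for Ccrl2 in neutrophil-like cells, at -3.78 (-4.94 to -2.63). It was larger in TRIF-KO for Marco in macrophage-like cells (1.70, 0.88 to 2.52), for Acod1 in neutrophil-like cells (0.96, 0.25 to 1.67) and for Clec4e in monocyte-like cells (0.67, 0.20 to 1.14). In these 3 cases the TRIF-KO PBS library had the lowest of the 4 levels. For the other 9 measured combinations with a value the interval held 0. The genes had been chosen for their TNF responses in these libraries, so these differences are a description only.

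The share of single cells that held several of the genes was also counted. In neutrophil-like cells 24.4, 93.8, 3.03 and 72.7% of the cells held UMIs of 4 or more of the 7 genes, and 6, 0, 31 and 3 cells held none. Acod1 and Ccrl2 were found in the same cell in 2.44, 74.1, 0 and 42.3% of neutrophil-like cells, and Fpr1 with Fpr2 in 38.4, 82.7, 14.1 and 81.0%. In monocyte-like cells the share with 4 or more was 6.10, 72.6, 0.781 and 64.3%. A monocyte-like cell held a median of 1, 14, 0 and 13 Clec4e UMIs. Detection follows depth, which differed up to 2545 against 7452 UMIs between the neutrophil-like cells of the libraries. Joint shares also follow how often each gene was detected. In neutrophil-like cells of the wild-type TNF library Acod1 was found in 91.4%, Ccrl2 in 79.0%, Fpr1 in 86.4% and Fpr2 in 96.3%. Whether genes shared cells more often than their separate shares give was not tested.

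With every neutrophil-like cell thinned to 500 UMIs, which left out no cell, the expected share with Acod1 was 13.5, 38.1, 3.21 and 19.3% in place of 58.5, 91.4, 11.1 and 77.0%. The thinned share with Ccrl2 was 0.631, 30.04, 2.78 and 12.8%, in place of 3.66, 79.0, 8.08 and 49.4%. The wild-type TNF library remained the highest for both genes, followed by the TRIF-KO TNF library.

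**Figure D4:**
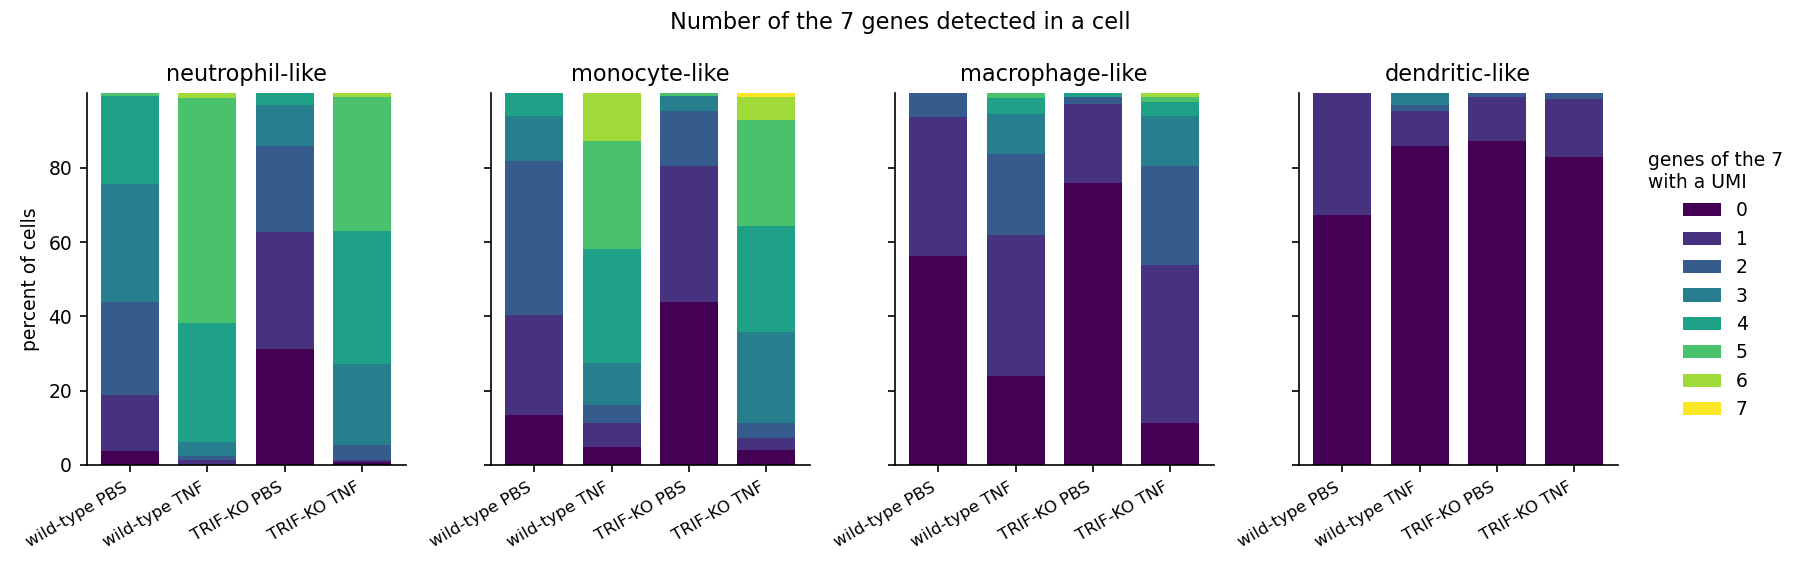
Percent of cells (vertical axis) by the number of the 7 genes with at least 1 UMI, for each class and library, not corrected for depth. Neutrophil-like cells with 4 or more genes make up 93.8 and 72.7% in the TNF libraries and 24.4 and 3.03% in the PBS libraries, whereas most dendritic-like cells hold none.

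Over the 16 points of 4 classes by 4 libraries, which share libraries and depth, levels as log2(CPM + 5) were correlated as a description. Fpr1 and Fpr2 had a Pearson r of 0.90, Clec4e and Fpr2 also 0.90, and Acod1 and Clec4e 0.87. Marco and Msr1, the 2 scavenger receptors, had 0.31. Among 4788 genes, the pattern of Acod1 was most like that of Cxcl2 (0.96), Lcp1 (0.95) and Abtb2 (0.95), and that of Marco was most like Myo10 (0.93), Il18 (0.92) and Timd4 (0.90), the last a marker used for the class. Msr1 was most like Ms4a6d (0.97), Dok2 (0.91) and Ywhab (0.90). Clec4e was most like Clec5a (0.97), another C-type lectin, N4bp1 (0.97) and Trem3 (0.96), a marker used for the neutrophil-like class. Fpr1 was most like Klf7 (0.99), Ets2 (0.95) and Cd14 (0.94), and Fpr2 most like Lrp10 (0.94), Snx18 (0.94) and Pstpip2 (0.93). Ccrl2 had the weakest partners, Nfkbia (0.86), Cxcl2 (0.85) and Schip1 (0.84).

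The genes around the members were described from fixed lists. Of the scavenger receptors, 6 were measured in monocyte-like cells. With TNF 1 (Msr1) was at least 2-fold higher and 3 were at least 2-fold lower in wild-type, and 1 and 2 in TRIF-KO. The shares over all features in this class were 10.5% higher and 20.2% lower in wild-type, and 11.4 and 12.1% in TRIF-KO. Lrp1, an endocytic receptor, was at 321, 57.7, 384 and 140.1 CPM and Scarb1, the receptor for high-density lipoprotein, at 120.1, 33.0, 127 and 78.9 CPM. In macrophage-like cells Marco was the 1 higher gene among 7 measured, beside 11.7% of all features in wild-type and 12.1% in TRIF-KO. The haemoglobin scavenger receptor Cd163, a marker used for the class, was at 457, 59.8, 238 and 141 CPM and the mannose receptor Mrc1 at 1456, 613, 1367 and 779 CPM. The medians of the list were -1.05 and -0.41 in these 2 classes, beside -0.18 and -0.01 over all features.

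Of the C-type lectin receptors, 11 were measured in monocyte-like cells. Of all features there, 10.5% were at least 2-fold higher and 20.2% lower with TNF in wild-type, and 11.4 and 12.1% in TRIF-KO. Of the 11 receptors, 4 were at least 2-fold higher and 3 lower in wild-type, and 4 and 2 in TRIF-KO. Beside Clec4e these included Clec4n, which encodes Dectin-2, at 58.0, 503, 15.4 and 251 CPM. The inhibitory receptor gene Clec4a2 was at 278, 99.0, 151 and 174 CPM. In neutrophil-like cells 4 of 8 were higher and 0 lower in wild-type, and 2 and 0 in TRIF-KO. The shares over all features there were 10.8% higher and 27.2% lower in wild-type, and 8.92 and 24.3% in TRIF-KO. Cd302 was among the higher genes in both genotypes, at 8.75, 79.1, 6.61 and 54.4 CPM, and Clec5a was among those in wild-type, at 97.5 and 330 CPM, and stood at 112 and 182 CPM in TRIF-KO. Malt1, a paracaspase that acts after Card9, was at 118, 960 and, in TRIF-KO, 118 and 319 CPM in monocyte-like cells, a log2 ratio of -1.59 between the TNF libraries. Fcer1g, the signalling chain that Mincle binds, was at 1553, 2646, 1932 and 2702 CPM in neutrophil-like cells and at 2404, 3790 and, in TRIF-KO, 2379 and 3705 CPM in monocyte-like cells, the 2 classes where Clec4e was measured. In macrophage-like cells it was at 2231, 2518, 2181 and 2552 CPM, and in dendritic-like cells at 436, 215, 627 and 263 CPM.

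Of the chemoattractant receptors, 9 were measured in neutrophil-like cells, and beside Fpr1 and Fpr2 none was at least 2-fold higher with TNF. Of the 9, 3 were lower in wild-type and 2 in TRIF-KO. The shares over all features there were 10.8% higher and 27.2% lower in wild-type, and 8.92 and 24.3% in TRIF-KO. In monocyte-like cells 4 of 7 were higher and 1 lower in both genotypes. Of all features in that class, 10.5% were higher and 20.2% lower in wild-type, and 11.4 and 12.1% in TRIF-KO. There Fpr1 and Fpr2 were joined by 2 receptors that are named here after their values were seen, C5ar1 at 32.3, 299 and, in TRIF-KO, 18.8 and 180.5 CPM, and the receptor for platelet-activating factor, Ptafr, at 82.9, 757, 73.6 and 308 CPM. In neutrophil-like cells the C5a receptor gene C5ar2 was at 238, 30.8, 201 and 31.6 CPM. Cxcr4, a receptor that holds neutrophils in bone marrow, was at 313, 94.5, 535 and 98.8 CPM in the same class. Anxa1, which encodes a ligand of Fpr2, was at 1326, 1235, 1404 and 1528 CPM in neutrophil-like cells and at 443, 39.6, 306 and 95.9 CPM in monocyte-like cells. Cmklr1, the signalling receptor for chemerin, was at 24.9, 142, 9.41 and 113 CPM in monocyte-like cells, a log2 ratio of -0.33 between the TNF libraries. Rarres2, which encodes chemerin and was looked up after the other values were seen, had 2 UMIs in dendritic-like cells of the wild-type PBS library and 0 elsewhere in the 4 classes.

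Of the citric acid cycle genes around itaconate, 13 were measured in monocyte-like cells. None of the 13 was at least 2-fold higher or lower with TNF in wild-type, and 1, Idh3a, was higher in TRIF-KO (13.7 and 50.5 CPM). In that class 10.5 and 11.4% of all features were higher in wild-type and TRIF-KO, and 20.2 and 12.1% lower. In neutrophil-like cells 0 of 6 were higher and 1 lower in wild-type, and 0 and 3 in TRIF-KO, beside 27.2 and 24.3% of all features lower and 10.8 and 8.92% higher. Of the targets of NRF2, a factor that itaconate is known to activate, 4 of 6 in monocyte-like cells were higher and 1 lower in both genotypes. In neutrophil-like cells 2 of 6 were higher and 1 lower in wild-type, and 3 and 1 in TRIF-KO. The shares over all features in both classes are those given above for the citric acid cycle genes. In macrophage-like cells 2 of 4 NRF2 targets were higher in wild-type and 1 of 4 in TRIF-KO, beside 11.7 and 12.1% of all features. In dendritic-like cells 3 of 3 NRF2 targets were higher in wild-type and 1 of 3 in TRIF-KO. Of all features there, 6.9 and 5.46% were higher. Gclc was at 12.4, 312, 172 and 242 CPM in that class, and Hmox1 at 0, 170, 125 and 66.6 CPM. The part of itaconate, or of RNA from macrophages, in the values of the NRF2 targets was not tested. In monocyte-like cells Slc7a11, the cystine transporter, was at 4.14, 767, 2.57 and 348 CPM, and Hmox1, haem oxygenase, at 86.2, 1779.6, 95.8 and 1257 CPM. In neutrophil-like cells Txnrd1, thioredoxin reductase, was at 58.8, 196, 16.5 and 54.1 CPM, and Gclm, which helps to make glutathione, at 75.01, 17.6, 29.7 and 50.1 CPM. Of the Toll-like and NOD receptor list, 3 of 6 in neutrophil-like and 3 of 5 in monocyte-like cells were higher and none lower in wild-type, and 2 and 0 in each of the 2 classes in TRIF-KO. The shares of all features higher in these classes were 10.8 and 10.5% in wild-type, and 8.92 and 11.4% in TRIF-KO. The median log2 ratio of TRIF-KO to wild-type over the list with TNF was -0.41 in neutrophil-like and -0.29 in monocyte-like cells. The ratio of Cd14 was -1.24 with TNF and -1.02 with PBS in neutrophil-like cells, -1.57 and 0.61 in monocyte-like cells, and -1.16 and -1.36 in macrophage-like cells.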

How the data were processed

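Single-cell suspensions of spleen, after red cell lysis and dead cell removal per the labels' protocols, gave 4 droplet libraries. The deposited files hold raw UMI counts per gene and barcode. The authors used Cell Ranger 3.0, Seurat 4.1.1 and the build mm10 per the submitters' processing notes, while the file headers name Cell Ranger 6.0.1. Cells entered with a minimum of 200 genes detected and no more than 10% of UMIs from mitochondrial genes, and the highest Scrublet scores were removed as doublets (0.8% per 1000 barcodes). Each cell was scored on 12 marker lists, less the 20% quantile of its library, and assigned to the best class at a score of at least 0.1 and a lead of at least 0.02. UMIs were summed per class and library and given as CPM with exact Poisson intervals, shares with exact Clopper-Pearson intervals and ratios with exact conditional intervals (scipy 1.17.1, scanpy 1.11.5, Python 3.11.15). The interval of a difference between responses is a normal approximation from the 4 counts. The ratio code was tested on simulated data. Replicates were absent, so no p-value was computed.

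The genes and lists were chosen with earlier results of these data known. Genes named from lists were the 2 highest and 2 lowest wild-type TNF ratios per list and class, of which the text gives a part, and 3 genes of most like pattern per member. Dissociation stress genes summed to 3334 to 4743 CPM in neutrophil-like, 973 to 1573 CPM in monocyte-like, 288 to 949 CPM in macrophage-like and 869 to 1250 CPM in dendritic-like cells.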

Additional observations from a re-analysis of the deposited data

How the results depend on the processing

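Under 8 alternatives (median-of-ratios scaling, Leiden clusters, a stricter gate, no doublet removal, at most 5% mitochondrial UMIs, each cell weighted equally, no top cell, and cells thinned to 500 UMIs), 382 of 426 recomputed values of the 14 combinations stayed within their counting interval, 43 moved and 1 reversed. The alternatives differed widely. Thinning to 500 UMIs gave 23 of the 43 moved values and left only 21 within their interval, whereas each other alternative moved at most 7. The reversal was Fpr2 in macrophage-like cells with PBS, at -0.27 with cells weighted equally. With at most 5% mitochondrial UMIs, 1 combination was at least 2-fold higher in TRIF-KO with TNF in place of 0, namely Fpr2 in macrophage-like cells (1.27). With PBS, 1 was higher with cells weighted equally and 0 after thinning, in place of 2, and 3 were lower after thinning in place of 6. Thinning leaves fewer UMIs, and several combinations then had no value. The other causes were not tested. The lower levels of Acod1 and Ccrl2 in the TRIF-KO TNF library remained at least 2-fold in both classes under each alternative that gave a value. In monocyte-like cells both genes had passed the limit of 50 CPM only through the wild-type TNF library. Median-of-ratios scaling moved the share of higher among 2-fold calls over all features from 28.4 to 49.8% in neutrophil-like and from 34.2 to 45.8% in monocyte-like cells of wild-type with TNF. It moved it from 26.9 to 56.0% in neutrophil-like and from 64.5 to 53.7% in macrophage-like cells of TRIF-KO. Between genotypes it moved from 38.4 to 49.7% in monocyte-like cells with PBS. In dendritic-like cells it moved from 24.6 to 41.4% in wild-type with TNF, and between genotypes from 81.9 to 67.9% with TNF and from 55.3 to 66.7% with PBS. After thinning, Acod1 in monocyte-like cells had no ratio between the TNF libraries. Values that rest on 10 or fewer UMIs have wide intervals, and none of the alternatives replaces a second library per group. No paired analysis was possible because each group has 1 library.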
